A study of Mus musculus with 10 samples.

Results

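Kinesin motor genes were followed in cultured mouse hippocampal neurons whose miR-409-5p or miR-501-3p had been blocked. Members were taken by name: every protein-coding gene whose mouse symbol is Kif followed by digits and an optional letter, which gave 38 of the 48709 genes in the count tables. Of these, 36 passed the filter on low counts, and Kif2b and Kif12 had 0 counts in all 10 libraries. The cells were primary hippocampal neurons at DIV10-12 (days in vitro), treated for 48 h with lipid nanoparticles. The nanoparticles carried a scramble RNA in the control (2 libraries), an inhibitor of miR-409-5p (anti-miR-409-5p, 4 libraries) or an inhibitor of miR-501-3p (anti-miR-501-3p, 4 libraries). All 3 groups therefore share the nanoparticle, and no library of cells without it was analysed here. The labels do not say whether libraries of a group came from separate animals or cultures, so each p-value reflects only how far these libraries scatter, and that scatter may be technical.

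Kinesins are motor proteins that hydrolyse ATP and, in most families, walk toward the growing ends of microtubules. In neurons the kinesin-1, kinesin-2 and kinesin-3 families carry vesicles, mitochondria and RNA granules out along axons and dendrites, and other kinesins, such as Kif2a and Kif21a, trim or hold the microtubules themselves. A further group builds the mitotic spindle and divides the cell, and is usually low in neurons, which no longer divide. A microRNA lowers its target messages mainly by pairing its seed, bases 2 to 8, with a site in their 3' untranslated region (3' UTR), and an anti-miR is an antisense molecule that blocks this pairing.

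The mature sequences of the blocked microRNAs are shown because the seed decides which kinesin messages could pair with them. Both come from RefSeq on GRCm38.p6, with the seed in capitals, at chr12:109743172-109743194 on the plus strand for miR-409-5p and chrX:7241270-7241291 on the minus strand for miR-501-3p.
miR-409-5p: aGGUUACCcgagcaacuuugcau
miR-501-3p: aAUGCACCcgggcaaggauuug
The seeds differ, so each was searched separately in the longest 3' UTR that GENCODE annotates for a tested coding gene, on the transcript strand. A site was GGTAACC or GTAACCA for miR-409-5p and GGTGCAT or GTGCATA for miR-501-3p. Where the 2 forms of a microRNA's site overlap they make 1 longer site, GGTAACCA or GGTGCATA. Sites for miR-409-5p were found in 5 of the 36 tested kinesins (13.9%), against 1400 of 14207 tested coding genes (9.85%). Sites for miR-501-3p were found in 2 of 36 kinesins (5.56%), against 1851 of 14207 coding genes (13.0%).

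The 4 sites below lie in Kif21b, Kif1a and Kif1b for miR-409-5p and in Kif2a for miR-501-3p. They are printed because they belong to highly expressed kinesins or to those with a called change, and capitals mark the bases that match the site.
Kif21b, 3' UTR bases 455 to 462: ggtagttctcaGGTAACCAtggaaaccaga
Kif1a, 3' UTR bases 2064 to 2070: gtcagaacctaGTAACCAgaactgatgga
Kif1b, 3' UTR bases 4381 to 4387: taactgtgtatGGTAACCttgcatcacag
Kif2a, 3' UTR bases 1732 to 1738: ctgggtatagtGGTGCATgcccttagttg
Kif14 and Kif9 also held a miR-409-5p site, and Kif26b a miR-501-3p site. The match is a description of the letters and does not show that a site is used. Whether a message with a site changed when its microRNA was blocked is given with each gene below.

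Total counts over genes ran from 22254788 to 32096808 per library. Summed neuronal markers (10 of 10 tested) reached 8290 to 8460 CPM (counts scaled to a common library size) in the control, 8730 to 9220 under anti-miR-409-5p and 8560 to 9290 under anti-miR-501-3p. The labelled neurons were not the only cells: 8 of 8 astrocyte markers were tested and summed to 4210 to 4310, 4630 to 4890 and 4450 to 4670 CPM in the same order. Oligodendrocyte-lineage markers (8 of 8 tested) summed to 456 to 636, 420 to 520 and 351 to 500 CPM. Vessel and fibroblast markers (7 of 8 tested) summed to 227 to 322, 205 to 269 and 254 to 317 CPM. Microglial markers were near the floor, with 4 of 7 tested and sums of 13.7 to 18.1 CPM over all libraries. In such bulk RNA, fewer cells of a type and less RNA per cell cannot be told apart.

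Kinesin messages in the control were dominated by a few axonal transport motors. Levels between genes are compared per length, as RPKM (CPM per kilobase of exon). Length is all annotated exon bases of a gene, which can far exceed its longest coding transcript (17608 against 10233 bases for Kif1b). Close ranks and shares below depend on that choice. Kif1a, the kinesin-3 motor for synaptic vesicle precursors and dense-core vesicles, stood first in the control at 195 RPKM (n = 2). The kinesin-1 heavy chains Kif5c and Kif5a, which carry mitochondria and many membrane cargoes, followed at 171 ± 6.90 and 171 ± 0.247 RPKM (SD, n = 2) and did not differ from each other beyond their spread. Next came Kif1b, a kinesin-3 motor for mitochondria and synaptic vesicle precursors, at 66.8 ± 2.07 RPKM, and Kif3a, the kinesin-2 subunit, at 65.1 ± 0.966 RPKM, again within their spread. Kif1a, Kif5a, Kif5c and Kif1b together made up 67.1% ± 0.379 (SD, n = 2) of the summed kinesin RPKM in the control. With miR-409-5p blocked they made up 67.1% ± 0.298 (SD, n = 4), and with miR-501-3p blocked 67.0% ± 0.332 (SD, n = 4).

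On this measure the order at the top differed between control and treated cells. Under both anti-miRs Kif5c stood first, at 192 ± 6.85 RPKM under anti-miR-409-5p and 189 ± 7.48 under anti-miR-501-3p, ahead of Kif1a at 182 ± 3.80 and 180 ± 2.97. Under anti-miR-501-3p the gap between them was close to the spread of Kif5c. This order depends on the length used. All annotated exons hold 9330 bases for Kif1a and 7142 for Kif5c, and the longest coding transcripts 8206 and 6856. In CPM, Kif1a stood above Kif5c in all 3 groups, at 1820, 1700 and 1680 against 1220, 1370 and 1350. By class, the 13 transport kinesins held 88.6% of summed kinesin RPKM in the control, 88.1% under anti-miR-409-5p and 88.2% under anti-miR-501-3p. The 5 kinesins that regulate microtubules or signalling (Kif2a, Kif21a, Kif21b, Kif26a and Kif26b) held 9.74%, 10.2% and 10.2%. The 11 tested mitotic kinesins held 1.20%, 1.25% and 1.09%.

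**Figure D1:**
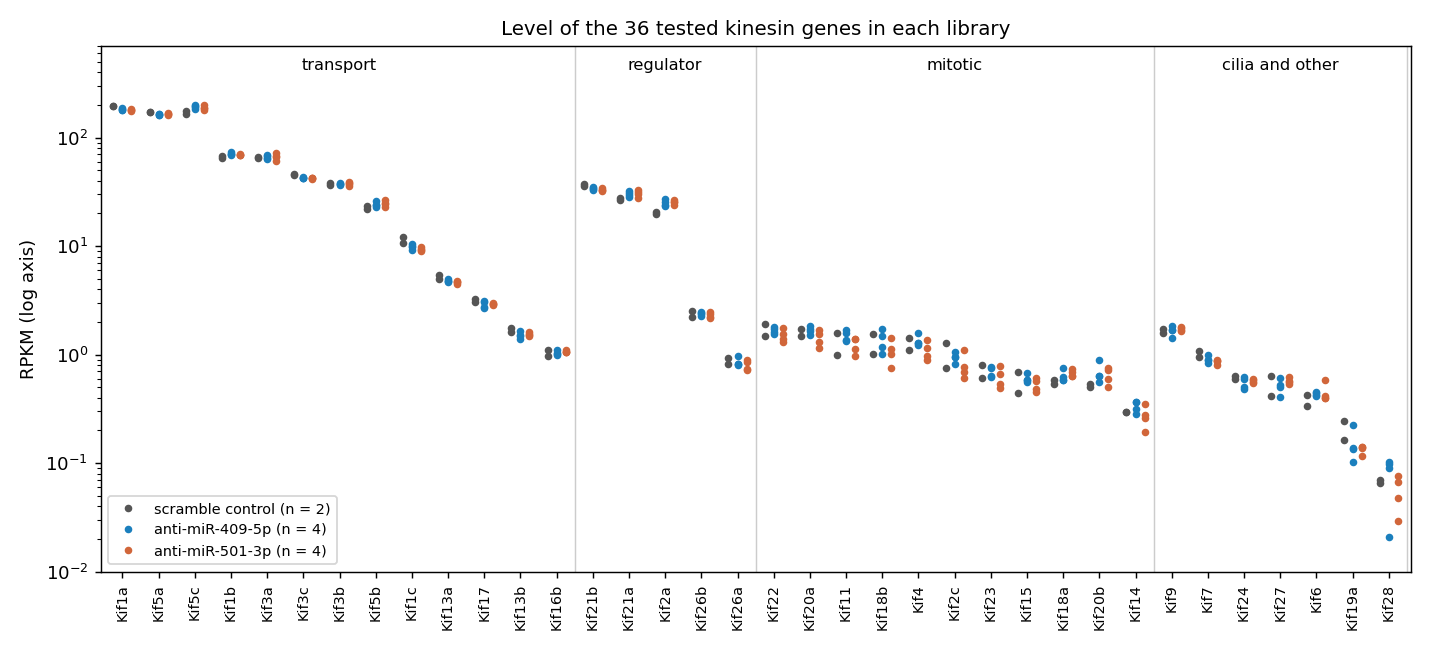
Level of each of the 36 tested kinesin genes in RPKM on a log axis, 1 point per library, with genes grouped by class and ordered by their control mean. Transport kinesins such as Kif1a and Kif5c lie near 200 RPKM at the upper end, whereas the 11 mitotic kinesins lie from under 1 to about 2 RPKM.

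The first question was how blocking each microRNA changed these messages against the scramble control. Under anti-miR-409-5p, 2 kinesins were higher (Kif2a and Kif5c) and 4 lower (Kif1a, Kif1c, Kif3c and Kif21b) at an adjusted p under 0.05, in edgeR's quasi-likelihood test with Benjamini-Hochberg adjustment over 16884 genes. That is 16.7% of the 36 tested members, against 27.8% of all tested genes (15.6% higher and 12.2% lower). With miR-501-3p blocked, 3 kinesins were higher (Kif2a, Kif5c and Kif21a) and 5 lower (Kif1a, Kif1c, Kif3c, Kif13a and Kif21b). That is 22.2% of members, against 33.0% of all tested genes (17.6% higher and 15.4% lower). Pooled over all 36, kinesins were thus called less often than the background in both comparisons, a difference that was not tested. Shares by class rest on few genes and were not tested. The 13 transport kinesins were called at 30.8% and 38.5%, near those backgrounds. The 5 regulators were called at 40% and 60%. Mitotic and ciliary kinesins, which have few counts, were called at 0%. The comparisons share the same 2 control libraries, so the likeness of their values is no independent evidence. Called genes were picked by their difference between these libraries, so where their groups are said below to lie apart, that is description only.

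Much rested on the 2 controls. Leaving out either leaves 1 control, with no spread of its own, and calls over all tested genes then fell too. Without control replicate 1, Kif2a stayed higher in both comparisons and the other called kinesins lost their calls. Without control replicate 2, Kif1a, Kif3c and Kif21b lost their calls under anti-miR-409-5p, and Kif1a and Kif21a theirs under anti-miR-501-3p. Kif1a, Kif3c and Kif21b were also lost under anti-miR-409-5p without anti-miR-409-5p replicate 2, without its replicate 3, or without anti-miR-501-3p replicate 2. Over all tested genes, those called lower there then fell from 2062 to 1676, 1132 and 1600. Without anti-miR-501-3p replicate 2, 3 kinesins stayed lower under anti-miR-501-3p, as Kif13a and Kif3c lost their calls. All tested genes called lower there went from 2605 to 1809. Kif21a lost its call without anti-miR-501-3p replicate 2, 3 or 4. Under anti-miR-409-5p, Kif1a and Kif3c also lost theirs without anti-miR-409-5p replicate 4, and Kif3c without anti-miR-501-3p replicate 4. Another scaling moved the balance of directions: with upper-quartile factors, anti-miR-409-5p had 2 higher and 7 lower members, and anti-miR-501-3p had 1 higher and 6 lower. All 16884 tested genes moved the same way, to 2233 higher and 3074 lower, and 2540 and 3607. The shift was therefore not particular to kinesins.

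**Figure D2:**
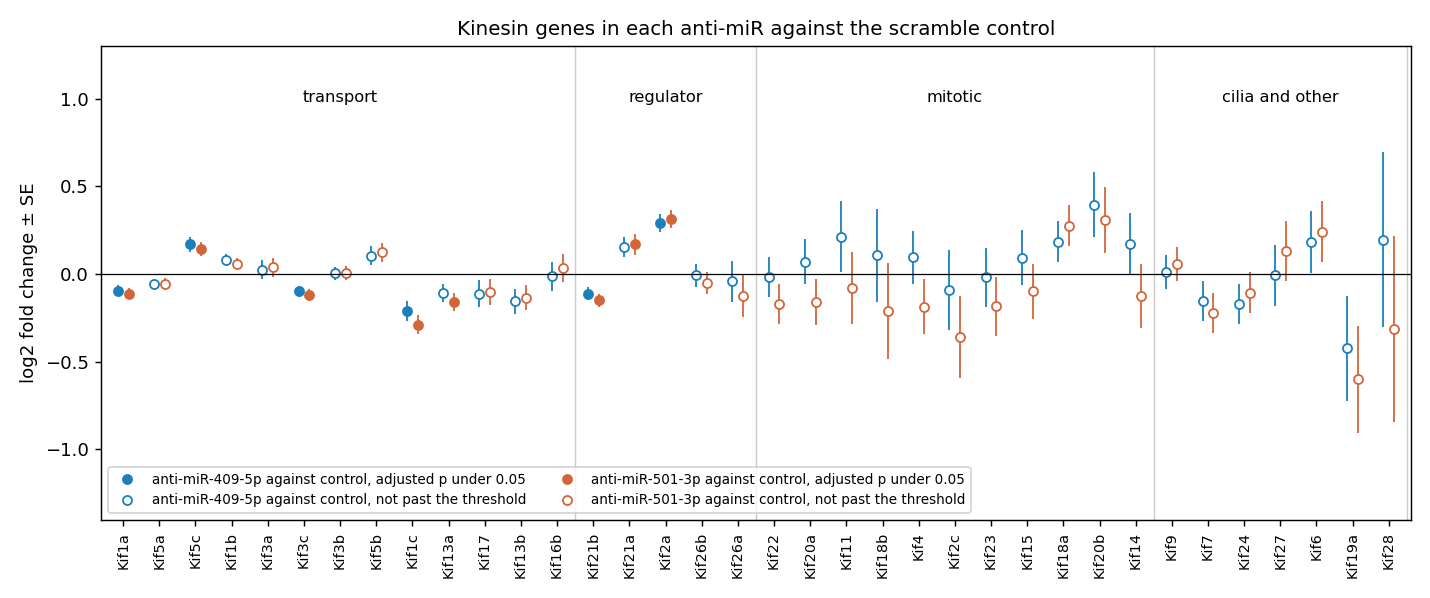
Log2 fold change with its standard error for each tested kinesin, anti-miR-409-5p (blue) and anti-miR-501-3p (orange) against control, with filled points at an adjusted p under 0.05. The filled points all lie in the transport and regulator classes and none lies in the mitotic or ciliary class.

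Among the kinesin-1 heavy chains, Kif5c rose. Its CPM was 1188 and 1257 in the control, 1353, 1317, 1394 and 1430 under anti-miR-409-5p, and 1284, 1347, 1350 and 1415 under anti-miR-501-3p. Every treated library lay above both controls. The log2 fold change was 0.17 ± 0.042 (SE; adjusted p = 0.00651) under anti-miR-409-5p and 0.14 ± 0.042 (adjusted p = 0.014) under anti-miR-501-3p. Its partner Kif5a, the neuronal form mutated in a hereditary spastic paraplegia, did not pass, with 1196 and 1198 CPM in the control, 1130 to 1164 under anti-miR-409-5p and 1119 to 1175 under anti-miR-501-3p. Those groups did not overlap, but the differences were small, at -0.060 ± 0.032 (adjusted p = 0.175) and -0.057 ± 0.032 (adjusted p = 0.181). Kif5b, the heavy chain made in most tissues, measured 175.2 and 184.8 CPM in the control against 183 to 209.5 and 183.7 to 210.5, with overlapping groups and no call.

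The kinesin-2 subunits Kif3a and Kif3b, which pair as a heterotrimer with the adaptor Kifap3, did not pass. Kif3a measured 230.9 and 235.8 CPM in the control, 229.3 to 246.7 under anti-miR-409-5p and 216.5 to 258.9 under anti-miR-501-3p. Kif3b measured 207 and 215.3 CPM, then 208.1 to 214.6 and 202.3 to 217.8. The groups overlapped for both genes. The neuronal alternative subunit Kif3c was lower. It measured 344.4 and 336.4 CPM in the control, 315 to 322.8 under anti-miR-409-5p and 308.9 to 318.2 under anti-miR-501-3p, so no treated library reached a control. The log2 fold change was -0.10 ± 0.034 (adjusted p = 0.0349) and -0.12 ± 0.034 (adjusted p = 0.012). Exons of the opposite-strand genes Gm48512 and 1110002L01Rik cover 43.3% of Kif3c's exon bases, and the library kit does not mark strand, so reads there cannot be assigned to one gene with certainty. 1110002L01Rik itself reached only 4.64 CPM in the control. Kif17, a dendritic motor known for carrying NMDA receptor vesicles, measured 13.91 and 14.9 CPM against 12.34 to 14.42 and 13.2 to 13.69, with no call.

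Kinesin-3 held 2 of the 4 decreases under anti-miR-409-5p and 3 of the 5 under anti-miR-501-3p. Kif1a measured 1816 CPM in both controls, 1751, 1680, 1672 and 1700 under anti-miR-409-5p, and 1717, 1672, 1651 and 1679 under anti-miR-501-3p. All 8 treated libraries lay below both controls, but the size was small, at -0.09 ± 0.031 (adjusted p = 0.0316) and -0.11 ± 0.031 (adjusted p = 0.0105). Kif1a carries a miR-409-5p site, printed above, and was lower when that microRNA was blocked. With the correction for GC content and length given below, that change was -0.0069 (edgeR, adjusted p = 0.932).

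Kif1c, a vesicle motor found in many tissues, showed the biggest relative decrease of the called kinesins. It measured 87.72 and 78.84 CPM in the control, 76.12, 73.23, 66.71 and 71.32 under anti-miR-409-5p, and 71.67, 66.97, 67.97 and 65.77 under anti-miR-501-3p. Its controls differ from each other by more than the lower control differs from the highest treated library. The log2 fold change was -0.21 ± 0.055 (adjusted p = 0.00873) and -0.29 ± 0.055 (adjusted p = 0.000742), or 0.864 and 0.818 times the control. Kif13a, a motor of endosomes and recycling vesicles, measured 43.79 and 40.09 CPM in the control against 37.53 to 40.44 and 36.41 to 38.17. It passed under anti-miR-501-3p at -0.16 ± 0.051 (adjusted p = 0.0214), where the groups were apart, and not under anti-miR-409-5p at -0.11 ± 0.051 (adjusted p = 0.12), where they overlapped.

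The other kinesin-3 genes did not pass. Kif1b, with a miR-409-5p site, measured 1151 and 1202 CPM in the control, 1216 to 1289 under anti-miR-409-5p and 1218 to 1243 under anti-miR-501-3p. Its log2 fold changes were 0.08 ± 0.034 (adjusted p = 0.0923) and 0.06 ± 0.034 (adjusted p = 0.192), with groups that did not overlap. Kif13b, which binds the scaffold Dlg1, measured 22.87 and 20.91 CPM against 18.12 to 21.2 and 19.13 to 20.95. Kif16b, a motor of early endosomes, measured 8.787 and 10.12 CPM against 8.969 to 9.953 and 9.588 to 9.967. The groups of both genes overlapped. Over the 13 transport kinesins the median log2 fold change was -0.0597 and -0.0573, against -0.0116 and -0.0119 over all tested genes.

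**Figure D3:**
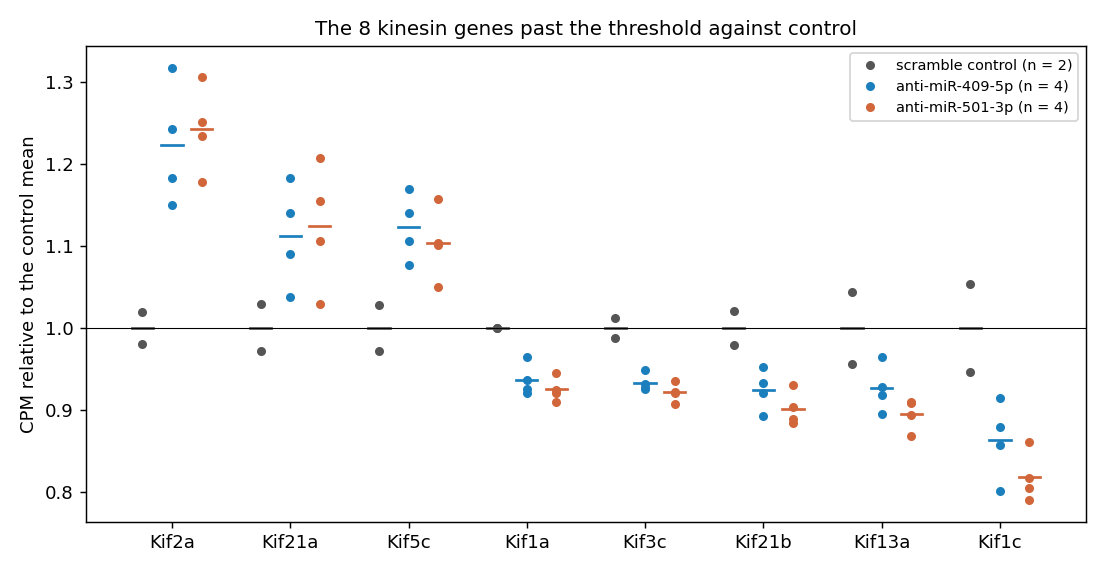
CPM of the 8 kinesins called in at least 1 comparison with control, divided by the control mean, with 1 point per library and bars at group means. Kif2a lies at 1.15 to 1.32 times the control mean in the anti-miR-409-5p libraries (without the GC correction), and for every gene but Kif13a the treated libraries of both groups lie on 1 side of both controls. The genes were picked by a test on these same libraries, so this separation is no further support. The share of all tested genes that separate this way was not counted.

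Among the kinesins that act on microtubules, Kif2a rose most, a direction that reversed with the correction for GC content and length given below. Kif2a takes tubulin off microtubule ends and limits the growth of axon branches. It measured 128.1 and 133.2 CPM in the control, 150.3, 154.5, 162.4 and 172.2 under anti-miR-409-5p, and 153.9, 163.5, 161.3 and 170.7 under anti-miR-501-3p. The lowest treated library stood above both controls. The log2 fold change was 0.29 ± 0.052 (adjusted p = 0.000749) under anti-miR-409-5p and 0.31 ± 0.052 (adjusted p = 0.000283) under anti-miR-501-3p, or 1.22 and 1.24 times the control. Kif2a holds a miR-501-3p site and no miR-409-5p site in the searched 3' UTR, and its difference between the anti-miRs was -0.02 (95% CI -0.111 to 0.066). Exons of the opposite-strand gene Dimt1 cover 19.2% of its exon bases, and Dimt1 measured 5.90 CPM in the control and 5.73 and 6.31 under the anti-miRs.

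Kif21a and Kif21b, close relatives that stop or slow microtubule growth, went opposite ways. Kif21a measured 171.1 and 181.2 CPM in the control, 182.8, 192, 200.9 and 208.3 under anti-miR-409-5p, and 181.4, 203.4, 194.9 and 212.7 under anti-miR-501-3p. It rose under anti-miR-501-3p (0.17 ± 0.060, adjusted p = 0.0386) and did not pass under anti-miR-409-5p (0.15 ± 0.060, adjusted p = 0.0651). Its lowest treated library in the anti-miR-501-3p group was only just above the higher control. Kif21b measured 457.2 and 438.6 CPM in the control, 426.3, 412.1, 399.6 and 417.8 under anti-miR-409-5p, and 416.8, 397.8, 395.7 and 404.9 under anti-miR-501-3p. It was lower in every treated library, by -0.11 ± 0.038 (adjusted p = 0.0308) and -0.15 ± 0.037 (adjusted p = 0.00544). It holds the longest miR-409-5p match of all tested kinesins and was lower when that microRNA was blocked. With the correction for GC content and length given below, that change was -0.0049 (edgeR, adjusted p = 0.961). Kif26a and Kif26b, relatives that do not walk, did not pass: Kif26a measured 6.474 and 5.679 CPM in the control against 5.579 to 6.704 and 5.017 to 6.218, and Kif26b 32.91 and 37.35 CPM against 33.58 to 35.88 and 31.6 to 36.61.

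The called changes went with base composition. The kinesins called higher had transcripts of 38.6% (Kif2a), 47.1% (Kif21a) and 47.5% (Kif5c) GC, whereas those called lower ranged from 51.6% (Kif3c) to 56.7% (Kif21b). The libraries differed the same way. The slope of a library's log2 level on GC content, per 10 percentage points and relative to the mean of the libraries, was 0.272 and 0.203 in the controls, -0.109 to 0.0384 under anti-miR-409-5p and -0.131 to 0.00784 under anti-miR-501-3p. The controls did not overlap either treated group, so treatment and any difference in library preparation cannot be told apart.

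With GC content and transcript length taken out of each library, most kinesin calls went. Under anti-miR-409-5p none of the 6 was kept, with 5.38% of all tested genes then called, and under anti-miR-501-3p only Kif1c was kept (-0.18, adjusted p = 0.00707), with 8.02% called. The lowest-GC transport and regulator genes were then called lower: Kif2a at -0.18 (adjusted p = 0.00182) and -0.22 (adjusted p = 0.000169), and Kif5b, 41.1% GC, at -0.21 (adjusted p = 0.00033) and -0.23 (adjusted p = 0.000111). For Kif2a the direction therefore depends on this correction. Kif5c had the same sign with the correction, at 0.08 (adjusted p = 0.103) and 0.06 (adjusted p = 0.203), but was not called.

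**Figure D4:**
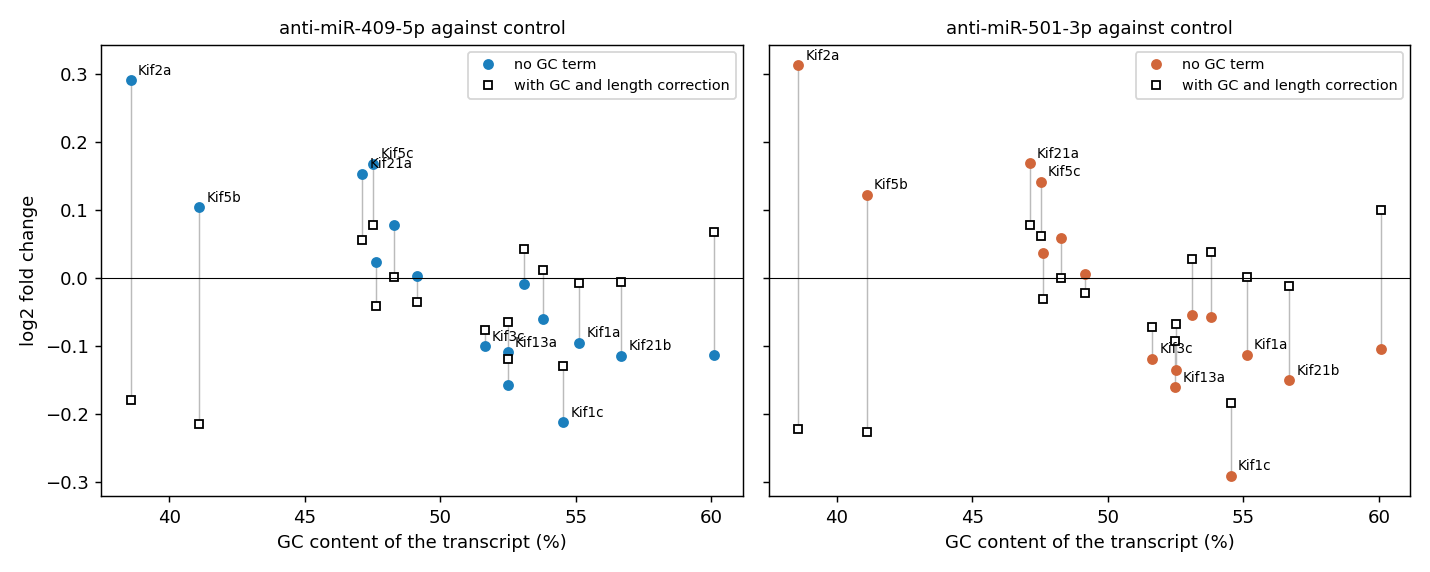
Log2 fold change against transcript GC content for the 16 kinesins with a control mean of at least 10 CPM, in anti-miR-409-5p (left) and anti-miR-501-3p (right) against control, without (filled circles) and with (open squares) the GC and length correction. Kif2a at 38.6% GC moves from the top of each panel to below 0.

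Mitotic kinesins were detected at low levels and, without the replicate block, none was called in either comparison with control. The counts were 0 of 11 in each, beside 27.8% and 33.0% of all tested genes. An unadjusted p under 0.05 was reached by 0 and 1 in edgeR, and DESeq2 called 0. Their median log2 fold change was 0.09 under anti-miR-409-5p and -0.16 under anti-miR-501-3p, and -0.0229 and -0.244 with the GC and length correction, so the sign of the first depends on it. Kif11, the motor that pushes spindle poles apart, measured 11.92 and 7.382 CPM in the control, 11.88, 9.881, 10.21 and 12.52 under anti-miR-409-5p, and 10.39, 8.422, 7.153 and 10.34 under anti-miR-501-3p. The 2 controls span most of the treated range. Kif15, which backs up Kif11, measured 7.613 and 4.911 CPM against 6.217 to 7.449 and 4.973 to 6.739.

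The chromosome-bound motors Kif4 and Kif22 measured 7.791 and 6.113, and 9.285 and 7.282 CPM in the control. Kif4 ranged from 6.767 to 8.621 under anti-miR-409-5p and from 4.934 to 7.573 under anti-miR-501-3p, and Kif22 from 7.534 to 8.782 and from 6.426 to 8.511. Pseudogenes of both are annotated, and Kif4-ps had 0 counts and Kif22-ps 1 count over all libraries. Exons of the opposite-strand gene Pdzd11 cover 15.1% of Kif4's exon bases, and Pdzd11 measured 24.8 CPM in the control. The chromosome-aligning motors Kif18a and Kif18b measured 5.692 and 5.311, and 5.478 and 3.574 CPM in the control. Kif18a ranged from 5.687 to 7.385 and from 6.273 to 7.289, and Kif18b from 3.631 to 6.203 and from 2.678 to 5.141. All anti-miR-501-3p libraries of Kif18a lay above both controls, with no call (0.27 ± 0.12, adjusted p = 0.0782), while its value with the GC and length correction was -0.28 (adjusted p = 0.123). Kif2c, a depolymerase at kinetochores, measured 5.585 and 3.274 CPM against 3.59 to 4.628 and 2.639 to 4.759. In most of these genes the controls lay far apart.

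The cytokinesis motors overlapped between groups, except Kif20b under anti-miR-409-5p. Kif20a measured 7.47 and 6.414 CPM in the control against 6.545 to 7.924 and 5.026 to 7.365, but shares 29.3% of its exon bases with the opposite-strand gene Cdc23, which measured 83.0 CPM. Kif23, a subunit of centralspindlin, measured 6.332 and 4.844 CPM against 4.856 to 6.054 and 3.863 to 6.218. Kif14 measured 3.059 and 3.073 CPM against 2.923 to 3.812 and 1.989 to 3.648, and holds a miR-409-5p site with a log2 fold change of 0.17 ± 0.18 (adjusted p = 0.518) when that microRNA was blocked. Kif20b measured 3.522 and 3.741 CPM against 3.858 to 6.181 and 3.481 to 5.255. Kif20b was the 1 mitotic kinesin whose anti-miR-409-5p libraries all lay above both controls, and its adjusted p was 0.128. How many of all tested genes separate this way was not counted, so little can be read from 1 such member. With the replicate block Kif20b was called higher, as given in the closing section.

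Mitotic kinesins tracked markers of dividing cells from library to library. Their summed CPM was 73.7 and 55.9 in the control, 72.1, 63.4, 64.1 and 78.1 under anti-miR-409-5p, and 71.6, 55.4, 50.1 and 65.3 under anti-miR-501-3p. The summed CPM of 10 proliferation markers, such as Mki67 and Top2a, was 171 and 119, then 165, 141, 146 and 179, then 158, 114, 104 and 147 in the same libraries. A library high in one sum was high in the other, and control replicate 1 stood above control replicate 2 in both. The part of dividing cells in the mitotic kinesin values was not tested.

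**Figure D5:**
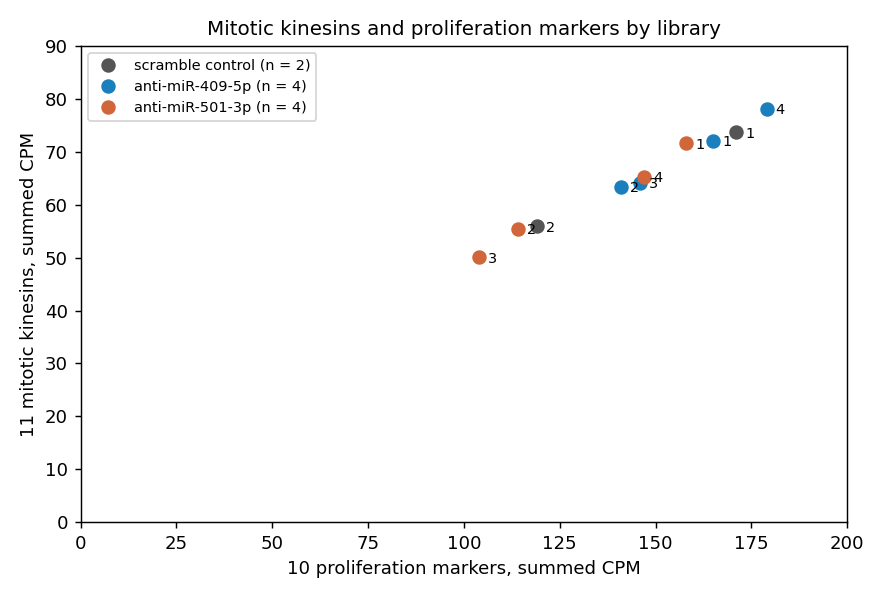
Summed CPM of the 11 tested mitotic kinesins against the summed CPM of 10 proliferation markers, 1 point per library, numbered by replicate. The points lie along 1 line from 50.1 against 104 CPM (anti-miR-501-3p replicate 3) to 78.1 against 179 CPM (anti-miR-409-5p replicate 4), and the 2 controls lie near opposite ends of it.

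The promoters of the mitotic kinesins shared letters that most transport kinesin promoters lacked. In genes of the late cell cycle a motif called CHR, TTTGAA or TTCGAA, often lies near the start site, and a CCAAT box often lies upstream of it. RefSeq promoters (250 bases before to 50 after the start, GRCm38.p6) were searched on both strands, with 31 of 38 kinesin genes present. A CHR was found in 9 of 11 mitotic kinesin promoters (81.8%), against 19.1% of all 32544 promoters. These are not the 11 tested mitotic kinesins: they include Kif2b, which had 0 counts, and have no entry for Kif20a. Kif18a and Kif2b were the ones without a CHR. Transport kinesins had it in 1 of 12 promoters of 10 genes (8.33%), the downstream of Kif1a's 2 promoters. Among the other classes it was present in 2 of 6 ciliary promoters, Kif24 and Kif27, and in 1 of 5 regulator promoters, Kif26b, and each of these 3 also held the other motif. CCAAT was found in 7 of 11 mitotic promoters (63.6%), 4 of 12 transport promoters (33.3%) and 37.4% of all promoters, and both motifs in 54.5%, 0.0% and 7.5%. Within 30 bases of the start, a CHR was found in 7 of 11 mitotic promoters and in 3.39% of all promoters. A match is a description of the letters and not a site shown to be bound.

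The 150 bases before the start are shown for the 3 mitotic kinesins with a CHR in the last 30 of those bases. The CHR (TTCAAA on the printed strand, its reverse complement) and the CCAAT box (ATTGG on the printed strand) are in capitals and do not overlap.
Kif11, chr19:37376232-37376381, plus strand: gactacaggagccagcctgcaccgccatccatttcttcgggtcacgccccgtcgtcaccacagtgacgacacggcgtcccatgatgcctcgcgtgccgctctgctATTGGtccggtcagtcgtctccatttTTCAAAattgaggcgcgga
Kif15, chr9:122950931-122951080, plus strand: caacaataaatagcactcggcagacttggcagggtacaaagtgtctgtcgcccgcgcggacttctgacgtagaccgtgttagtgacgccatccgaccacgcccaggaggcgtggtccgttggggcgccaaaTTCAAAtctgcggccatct
Kif22, chr7:127042421-127042570, minus strand: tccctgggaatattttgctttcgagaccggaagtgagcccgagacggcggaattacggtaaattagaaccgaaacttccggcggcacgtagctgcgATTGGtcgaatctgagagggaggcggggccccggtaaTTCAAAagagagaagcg
In all 3 the CHR begins at -19 or -17 relative to the start, and Kif11 and Kif22 also hold a CCAAT box, at -45 and -54. Kif15 has none in the window.

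The kinesins of cilia and the remaining members were low, and without the replicate block none was called in any comparison. With the block, 1 of the 6 tested ciliary kinesins was called lower under anti-miR-501-3p, beside 2739 of all 16884 tested genes. Kif7, a regulator of Hedgehog signalling, had 1.01 RPKM in the control, and Kif9, with a miR-409-5p site, 1.65 RPKM. Kif24 and Kif27 had 0.616 and 0.522 RPKM, Kif6 0.382 and Kif19a 0.205. Exons of Ticrr and 9330171B17Rik cover 20.3% of Kif7's exon bases on the opposite strand. Kif28 passed the filter with 2 to 11 counts per library, just inside it, and Kif2b and Kif12 lie outside it. The 3 counts that a count of 0 still allows correspond to 0.0951 to 0.136 CPM per library, for counting error only.

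The second question was whether the anti-miRs differed from each other, 4 libraries against 4. No kinesin was called (0 of 36, against 0% of all 16884 genes, in edgeR), 2 had an unadjusted p under 0.05, and DESeq2 also called 0. The 3 of smallest p were all mitotic: Kif4 was 0.28 ± 0.13 higher under anti-miR-409-5p (adjusted p = 0.848), Kif20a 0.23 ± 0.11 (adjusted p = 0.848) and Kif14 0.29 ± 0.15 (adjusted p = 0.871), on the log2 scale with SE. The median difference was 0.23 over the 11 mitotic kinesins, 0.03 over all 36 and -0.0012 over all genes. For the abundant transport genes the intervals were narrow: Kif5a differed by -0.0024 (95% CI -0.057 to 0.0523), Kif1a by 0.02 (-0.0363 to 0.0717) and Kif5c by 0.03 (-0.0447 to 0.0973).

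Libraries of the 2 anti-miRs with the same number deviated together, and pairing them changed 1 kinesin call. With the replicate block, Kif11 was higher under anti-miR-409-5p by 0.29 ± 0.073 (adjusted p = 0.0327), with 1.49% of all genes called. Kif11 was higher in 4 of 4 pairs, as were Kif14, Kif18b, Kif20a and Kif22. By pair, 5, 10, 10 and 11 of the 11 mitotic kinesins were higher in the anti-miR-409-5p library of pairs 1 to 4. The share of all tested genes higher in each pair was not counted. The 11 genes were read in the same libraries and are not 11 separate observations. The exception by gene was Kif18a, higher in 1 of 4 pairs. Proliferation markers moved the same way, with a median difference of 0.27 and 10 of 10 above 0, and 4 of them called with the block. Oligodendrocyte-lineage markers had a median difference of 0.23, with 6 of 8 above 0. The part of dividing or glial cells in the Kif11 difference was not tested.

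Genes that work with kinesins were also compared with the control. Of 29 light chains, adaptors and cargo linkers, 6 were called higher and 11 lower in the anti-miR-409-5p comparison, and 6 and 13 in the anti-miR-501-3p comparison. These are 58.6% and 65.5% of the list, against 27.8% and 33.0% of all tested genes, a difference that was not tested. That background includes genes with few counts, where a small change is harder to detect, and was not matched to the list for level. Kifap3, the kinesin-2 adaptor, rose by 0.20 ± 0.038 (adjusted p = 0.00118) and 0.22 ± 0.038 (adjusted p = 0.000431). Arl8b, which links lysosomes to kinesin-1, rose by 0.30 ± 0.046 (adjusted p = 0.000238) and 0.32 ± 0.046 (adjusted p = 9.12e-05). Lin7a, of the complex that ties Kif17 to its NMDA receptor cargo, rose by 0.51 ± 0.085 (adjusted p = 0.00148) and 0.53 ± 0.085 (adjusted p = 0.000804). Mapk8ip1, a kinesin-1 scaffold also called JIP1, was lower by -0.22 ± 0.039 in each (adjusted p = 0.000736 and 0.000487). With the GC and length correction, 2 higher and 2 lower, and 4 higher and 2 lower, were called, beside 5.38% and 8.02% of all tested genes. Lin7a kept its call in both (0.36, adjusted p = 0.0172 and 0.0123) and Arl8b under anti-miR-501-3p (0.10, adjusted p = 0.0472), whereas Kifap3 moved to 0.05 in each (adjusted p = 0.407 and 0.321) and Mapk8ip1 moved to -0.04 and -0.02 (adjusted p = 0.478 and 0.724).

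The opposing motor, dynein, moves toward the minus ends of microtubules. Of 24 dynein and dynactin genes, 6 were called higher and 7 lower in the anti-miR-409-5p comparison, and 7 and 8 in the anti-miR-501-3p comparison. These are 54.2% and 62.5% of the list, beside the same 27.8% and 33.0% of all tested genes, again not matched for level. The light chain Dynlt3, which had the smallest p of the list in each comparison, rose from 101 CPM in the control to 145 and 165 CPM (0.52 ± 0.059 with adjusted p = 3.56e-05, and 0.71 ± 0.059 with adjusted p = 1.8e-06). Pafah1b1, the dynein regulator LIS1, rose by 0.33 ± 0.050 (adjusted p = 0.000232) and 0.36 ± 0.050 (adjusted p = 7.1e-05). The dynactin subunit Dctn1 was lower by -0.18 ± 0.035 in each (adjusted p = 0.00105 and 0.000695). Dctn2 was lower by -0.18 ± 0.040 under anti-miR-409-5p (adjusted p = 0.00371), and Dctn4 rose by 0.21 ± 0.042 under anti-miR-501-3p (adjusted p = 0.00106). With the GC and length correction, 2 higher and 1 lower, and 3 higher and 1 lower, were called, beside 5.38% and 8.02% of all tested genes. Pafah1b1 kept its call in both (0.13, adjusted p = 0.00851, and 0.15, adjusted p = 0.00169), and Dynlt3 under anti-miR-501-3p at 0.23 (adjusted p = 0.000514) but not under anti-miR-409-5p at 0.11 (adjusted p = 0.118). Dctn1 moved to -0.02 and -0.0029 (adjusted p = 0.803 and 0.977), Dctn2 to -0.01 under anti-miR-409-5p (adjusted p = 0.918) and Dctn4 to 0.08 under anti-miR-501-3p (adjusted p = 0.141). Between the anti-miRs none of these genes was called, but with the replicate block Dynlt3 was lower under anti-miR-409-5p (adjusted p = 0.000315) and Nde1, another dynein regulator, higher (adjusted p = 0.0219).

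The kinesin-14 genes Kifc1 to Kifc3, whose motors walk the other way, are outside the naming rule. Kifc2, the neuronal member, was lower by -0.20 ± 0.039 (adjusted p = 0.00121) and -0.21 ± 0.039 (adjusted p = 0.000668), and Kifc3 was called lower under anti-miR-501-3p at -0.25 ± 0.062 (adjusted p = 0.00484). With the GC and length correction 0 of the 3 were called in either comparison, beside 5.38% and 8.02% of all tested genes. Their median log2 fold change moved from -0.142 and -0.21 to 0.0354 and -0.0139. In the authors' deposited tables of the same comparisons, 3 kinesins were higher and 1 lower at an adjusted p under 0.05 for anti-miR-409-5p, and for anti-miR-501-3p 3 were higher and 4 lower. The authors' deposited table for anti-miR-409-5p had Kif21a as higher, which did not pass here, and did not have Kif1a, Kif3c and Kif21b past the threshold. The authors' deposited table for anti-miR-501-3p differed by Kif13a, called here only.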

How the data were processed

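Polyadenylated RNA from 10 libraries was sequenced as 50-base single-end reads with a TruSeq kit that does not mark strand. The submitters' processing notes name STAR 2.5.2b, featureCounts, Subread 1.5.1 and FastQC 0.11.5, and the build mm10, without a role for each. The annotation release, strand setting and handling of reads with several alignments are not given in the sources used here. The deposited files hold the authors' raw counts per gene. The authors' comparison tables give log2 fold changes and adjusted p-values, per the file headers, and were used only for the calls named as theirs.

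Here, counts were tested with edgeR 4.0.16 (R 4.3.3; quasi-likelihood, robust, TMM, filterByExpr, all 10 libraries, Benjamini-Hochberg over 16884 genes, threshold 0.05). CPM used TMM library sizes, and exon lengths, GC content, 3' UTRs and overlaps came from GENCODE on GRCm38. The members and lists were chosen with earlier results of these data known. Every member is named; full statistics are given for those called against control, for the 3 of smallest p between the anti-miRs and for the 4 of smallest p in each partner list.

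Alternatives were DESeq2 1.42.0, other scalings, no filter, 2-group fits, a replicate block, GC and length splines (5 degrees of freedom; 99.7% of tested genes have values), a surrogate variable (sva 3.50.0) and leaving out each library. Same-numbered anti-miR libraries deviated together in all 4 pairs (r from 0.121 to 0.375, other pairs -0.333 to 0.177), so the numbers were taken to pair them in that comparison. The 2 ranges overlap, and the pairing was read from these same data. The block was fitted on all 10 libraries, so the controls shared the blocks of their numbers. Group numbers come from the sample titles. No 2 libraries of the same group agreed within sampling noise.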

Additional observations from a re-analysis of the deposited data

Results flagged for a closer look

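Of 72 groups of 4 libraries (36 kinesins in each anti-miR), 4 held 1 library far from the other 3, and about 1 in 20 such groups is picked out by chance. Kif16b was at 9.967 CPM in anti-miR-501-3p replicate 4, against 9.588 to 9.611 in the others. Kif6 was at 3.526 CPM in the same library, against 2.372 to 2.513. Kif26a was at 6.704 CPM in anti-miR-409-5p replicate 2, against 5.579 to 5.627. Kif28 was at 0.07474 CPM in anti-miR-409-5p replicate 1, against 0.317 to 0.3631, a matter of 2 counts.

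Kif11 differed between the anti-miRs by 0.292 on the log2 scale with the replicate block, where the test of the difference itself passed; the same difference did not pass without the block.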

How the results depend on the processing

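The count of kinesins called higher under anti-miR-409-5p, 2, became 4 without the filter on low counts, 5 with the replicate block, 0 with the GC and length correction, 0 with that correction and the block, and 1 with a surrogate variable. Over all 16884 tested genes (32177 without the filter), 2634 became 2723, 2692, 540, 584 and 892 in the same order. The count called lower there, 4, became 7 with upper-quartile scaling, 7 with scaling by total counts, 1 without the filter, 2 with the GC and length correction, 2 with that correction and the block, and 0 with a surrogate variable. Over all tested genes, 2062 became 3074, 3209, 1904, 369, 407 and 125. Under anti-miR-501-3p the 3 called higher became 1 with upper-quartile scaling, 1 with scaling by total counts, 0 with the GC and length correction, 0 with the block added, and 1 with a surrogate variable, and the 5 called lower became 3 with the GC and length correction. Over all tested genes, the 2974 called higher became 2540, 2452, 783, 843 and 2232, and the 2605 called lower became 571. Between the anti-miRs, the 0 called higher became 1 (Kif11) with the replicate block and 1 with the GC and length correction and the block; the pairing changed no other kinesin call there. In the comparisons with control, same-numbered libraries correlated at r from 0.0425 to 0.359 over 4 pairs, 2 a comparison, too few to take the numbers as pairs, and the replicate block there kept all 6 and all 8 calls and added others, among them the mitotic Kif20b, higher under anti-miR-409-5p (0.35, adjusted p = 0.0431). Leaving out 1 library moved kinesin calls in both comparisons with control, and when a control was left out, calls over all tested genes fell with them. Between the anti-miRs it gave 0 kinesins in both directions.

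Among kinesins called in either fit, directions reversed with the GC and length correction for Kif2a (-0.179 and -0.221), Kif5b (-0.213 and -0.226) and, under anti-miR-501-3p, Kif1a (0.00236, adjusted p = 0.975). With the block added they were -0.163 and -0.205 for Kif2a and -0.221 and -0.233 for Kif5b. Of the other values for single kinesins, 2033 kept their side of the threshold, 71 lost and 34 gained a call. Of the 2033, 159 changed sign without being called in either fit. With the GC and length correction 13 such members changed sign under anti-miR-409-5p (Kif18a to -0.292, Kif15 to -0.135 and Kif11 to -0.0395, for example) and 9 under anti-miR-501-3p. The causes were not tested. Standard errors were wider in mitotic and ciliary members, which have few counts, so a small change is harder to detect there.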
